A study of Caenorhabditis elegans with 2 samples.

Results

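The genes described here act in the licensing of DNA replication origins and at the replication fork of Caenorhabditis elegans. They are cdc-6, cdt-1, the 6 helicase genes mcm-2 to mcm-7, cul-4 and pole-1, which is 10 of the 19973 nuclear protein-coding genes of the annotation. They were taken by name, and the group was chosen by where the summits of the LIR-3 peak lists lay relative to their 5′ ends, so the values below describe the genes and carry no test. LIR-3, a zinc finger protein of the lin-26 family, was mapped by chromatin immunoprecipitation and sequencing with an anti-GFP antibody, after shearing by sonication. The worms were whole L1 hermaphrodites of strain OP312, of genotype unc-119(ed3) III; wgIs312, whose integrated transgene carries lir-3 with a GFP-FLAG tag at its C-terminus. They had been synchronized by bleaching and starvation and were taken 6 h later. There was 1 group of 2 biological replicates, in 1 strain, with no control group among the samples. A control experiment is named with the samples and was not analysed here. Whole animals were used, so the cells that gave each region cannot be told apart, and the tagged transgene was present in addition to whatever the strain carries at lir-3 itself.

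A replication origin is licensed when the origin recognition complex, CDC-6 and CDT-1 load the ring-shaped MCM helicase onto DNA before S phase. Origin firing turns the loaded helicase into a moving replication fork, where DNA polymerase epsilon copies the leading strand, and CDT-1 is then removed so that DNA is copied once per cycle. In C. elegans, the ubiquitin ligase built on CUL-4 drives that removal of CDT-1, and loss of cul-4 leads to re-replication. Newly hatched L1 larvae hold blast cells that resume division once the animals feed.

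The DNA before the 5′ ends of 4 helicase genes is shown first. mcm-4, the helicase gene with the strongest LIR-3 region in the pooled data, is not among them. Any summit listed within 500 bp of these 4 genes lay further upstream than the 250 bp shown. In many animals genes of this kind carry sites for E2F factors. The letters searched, TTTNNCGC, are an E2F-like form that allows any base at each N. They are looser than a standard E2F core, so matches such as TTTACCGC or TTTTTCGC need not be one. Letters matching TTTNNCGC on either strand are in capitals. The sequences were read from the RefSeq genome WBcel235 (ce11), each along the strand of its gene and ending at the base before the annotated 5′ end.
mcm-2, chrII:12006626-12006875, minus strand: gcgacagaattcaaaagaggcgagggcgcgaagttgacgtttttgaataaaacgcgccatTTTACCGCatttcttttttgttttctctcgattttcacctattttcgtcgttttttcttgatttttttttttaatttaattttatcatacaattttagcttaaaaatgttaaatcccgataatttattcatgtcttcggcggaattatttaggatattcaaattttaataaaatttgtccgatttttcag
mcm-5, chrIII:4291267-4291516, minus strand: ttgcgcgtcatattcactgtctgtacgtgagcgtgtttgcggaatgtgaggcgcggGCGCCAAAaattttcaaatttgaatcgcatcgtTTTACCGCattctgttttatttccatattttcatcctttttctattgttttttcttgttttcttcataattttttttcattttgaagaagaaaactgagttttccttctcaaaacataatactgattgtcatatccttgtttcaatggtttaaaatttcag
mcm-6, chrIII:9794117-9794366, plus strand: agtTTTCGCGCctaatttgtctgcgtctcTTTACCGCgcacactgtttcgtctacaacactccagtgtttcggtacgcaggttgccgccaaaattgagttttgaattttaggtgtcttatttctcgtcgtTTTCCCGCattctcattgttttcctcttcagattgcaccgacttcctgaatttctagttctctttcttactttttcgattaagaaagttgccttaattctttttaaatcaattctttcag
mcm-7, chrV:4346916-4347165, plus strand: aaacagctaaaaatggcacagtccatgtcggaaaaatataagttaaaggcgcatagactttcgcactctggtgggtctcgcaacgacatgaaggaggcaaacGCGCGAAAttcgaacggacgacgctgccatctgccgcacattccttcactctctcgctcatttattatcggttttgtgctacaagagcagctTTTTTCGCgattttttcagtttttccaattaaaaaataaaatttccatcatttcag
These 4 stretches held 1, 2, 3 and 2 matches. From 250 bp before to 50 bp after the 5′ end, 9 of the 10 genes held TTTNNCGC on either strand, all but cul-4, whereas 18.8% of all 19973 protein-coding promoters of that length did. With 500 bp before the 5′ end the count was again 9 of 10, beside 30.5% of all promoters. The narrower form TTTCCCGC, which TTTNNCGC contains, was found in cdt-1 and mcm-6 and in 1.57% of all promoters. In cdt-1 it was the only TTTNNCGC match and ran from +28 to +35 bp, inside the gene. The form TTTGGCGC, also contained in TTTNNCGC, was found in mcm-5 and in 0.94% of all. A match gives letters only and says nothing of a factor bound there.

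The same sequences end in the letters of a splice acceptor. In C. elegans many messages receive a short spliced leader at such a site, and the leader replaces the first transcribed bases, so an annotated 5′ end can lie downstream of the start of transcription. The letters TTTCAG stood directly before the annotated 5′ end of 6 of the 10 genes (cdc-6, mcm-2, mcm-3, mcm-5, mcm-6 and mcm-7) and of 12.3% of all protein-coding genes. With AG alone the count was 8 of 10, all but cdt-1 and pole-1, beside 27.6% of all. Distances from the 5′ end are therefore given to the annotated end, and where transcription starts was not measured.

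The DNA under the summit is shown for cul-4, which has a strong peak and no TTTNNCGC match. The window runs 100 bp to either side of the pooled summit along the strand of the gene. Capitals mark CTGCGTCTC.
cul-4 summit, chrII:7301764-7301964, plus strand: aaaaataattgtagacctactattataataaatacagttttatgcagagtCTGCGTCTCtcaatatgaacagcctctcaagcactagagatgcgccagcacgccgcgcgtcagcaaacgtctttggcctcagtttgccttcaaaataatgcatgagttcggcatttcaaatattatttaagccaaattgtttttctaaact
CTGCGTCTC, searched on both strands, was found in 11.1% of the windows around the 1894 nuclear summits of the authors' IDR set, and cul-4 was the 1 gene of the 6 with a pooled summit that held it there. At cul-4 it ran from -287 to -279 bp of the 5′ end. TTTNNCGC was in the summit windows of cdc-6, mcm-3, mcm-4 and pole-1, 4 of 6, and in 17.2% of the IDR windows. In mcm-3, mcm-4 and pole-1 it overlapped a GCGCGC, which 9.35% of the IDR windows held. In mcm-6, CTGCGTCTC stood at -230 to -222 bp, directly before a TTTNNCGC match at -221 to -214 bp that it did not overlap. It also stood at -14 to -6 bp of cdt-1, which had no region in any list. In the shorter promoter window CTGCGTCTC was in 2 of 10 genes, beside 2.93% of all promoters. GCGCGC was there in 3 of 10, beside 3.58%. The other letters searched in the shorter promoter window on both strands were TTTGAA (9 of 10 genes, 62.5% of all promoters), CCAAT (5 of 10, 45.5%), TATAAA (3 of 10, 37.9%), GTTCGA (2 of 10, 9.85%) and GAGAGAGA (0 of 10, 3.54%).

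Of the 10 genes, 4 had a LIR-3 peak of the authors' IDR set at the 5′ end: pole-1, cul-4, cdc-6 and mcm-4. The first 3 had a region there in both replicates, and mcm-4 had one in replicate 1 only. A gene was counted when a summit lay within 500 bp of its 5′ end. The IDR set, the peaks the authors kept by irreproducible discovery rate, gave a summit to 6.09% of protein-coding genes. That set is drawn from much longer lists of 30000 regions, made from each replicate and from the pooled data with background regions included. The pooled list placed a summit at 6 of the 10 genes, adding mcm-5 and mcm-3, beside 35.3% of protein-coding genes. Replicate 1's list placed one at the same 6 genes, beside 35.4%. Replicate 2's list placed one at 7, beside 35.4%: it had mcm-6 and mcm-7 in addition and lacked mcm-4. Because these lists chose the genes, nothing is read from the counts. No gene had an IDR summit downstream of its 5′ end within the window.

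**Figure D1:**
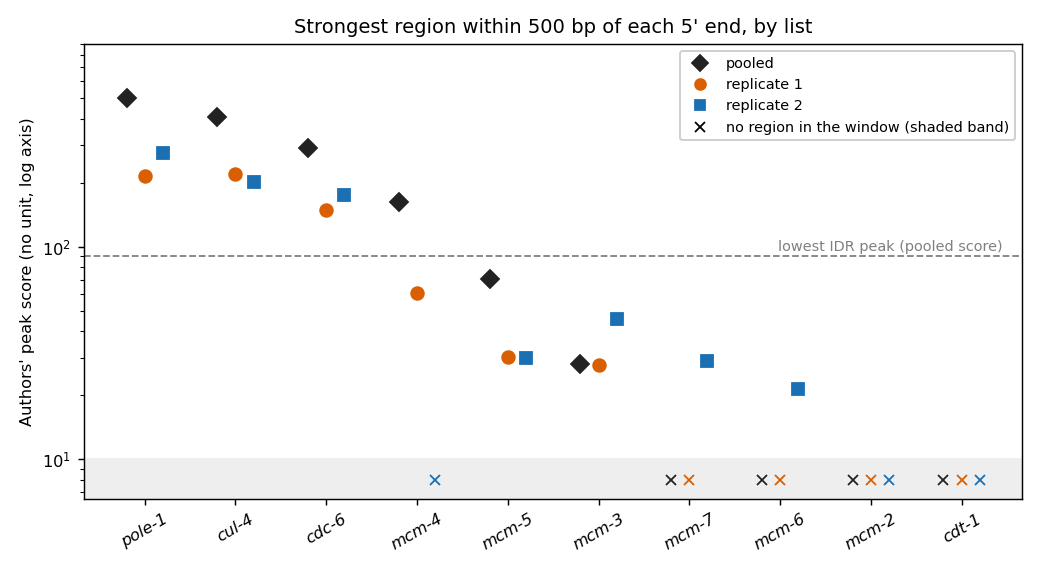
The authors' peak score (no unit, log axis) of the strongest region within 500 bp of each gene's 5′ end, in the pooled list (diamonds), replicate 1 (circles) and replicate 2 (squares). Crosses in the shaded band are lists with no region there, and the dashed line is the lowest score in the IDR set. pole-1, cul-4, cdc-6 and mcm-4 lie above the line in the pooled list, while mcm-5 and mcm-3 lie below it.

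The score is the authors' signal value, in no stated unit, and it ranks regions within a list. Scores of different lists are on scales that were not matched. In the pooled list the order was pole-1 (score 503), cul-4 (408), cdc-6 (290.2), mcm-4 (163), mcm-5 (70.4) and mcm-3 (28.1), against a median of 159 over the nuclear IDR set. The order of the first pair was not stable, since cul-4 was above pole-1 in replicate 1 and below it in replicate 2. In both replicates cdc-6 was below pole-1 and cul-4 and above every other gene of the group. The IDR set was exactly the 1894 nuclear regions with the highest pooled scores, down to 89.9, so membership in it restates the pooled score. The nearest members on either side of that lowest score were mcm-4 above and mcm-5 below, and mcm-4, at rank 908 of 1894, was not close to it.

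Among the loading factors, cdc-6 had a strong peak and cdt-1 had no region in any list. CDC-6 is the ATPase that works with the origin recognition complex to load the helicase. The gene (WBGene00000382, chromosome I, 4268070 to 4270287, minus strand, ce11) had its summit at position 4270559, at -272 bp, negative values being upstream. The summit lay between genes, and the region, from 4270391 to 4270726, reached into acin-1, a gene that starts at 4270666 on the plus strand. In the pooled list it ranked 427 of 29984 nuclear regions. Replicate 1 gave a score of 148 (rank 430 of 29982) and replicate 2 one of 175 (rank 399 of 29983). The replicate summits were 7 bp apart, at -279 and -272 bp, a mean of -275.5 ± 4.95 bp (SD, n = 2). Over the IDR peaks with a region in both replicates, 1862 of 1894, the median distance was 23 bp, with quartiles of 8 and 50 bp. The summit was not assignable to cdc-6 alone. It lay -107 bp from the 5′ end of acin-1, whose 5′ end is 379 bp from that of cdc-6, and so was nearer to acin-1. When each summit was given only to its nearest gene, cdc-6 lost it. A weak pooled region with a score of 30.4 lay just outside the window at +502 bp, in coding sequence of cdc-6.

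CDT-1 brings the helicase to the origin and is the target of CUL-4. cdt-1 (WBGene00000413, chromosome I, 3223160 to 3228104, minus strand) had no summit within 2500 bp in any list. Its 5′ end lay between pooled summits 79.5 kb apart, with the nearest at 28.0 kb. The corresponding distance was 43.1 kb in replicate 1 and 74.7 kb in replicate 2, whereas successive pooled summits were a median of 1668.5 bp apart. There were 7 pooled regions within 50 kb of cdt-1. Over protein-coding genes the median was 34 and the 5th percentile was 3. The lists thus held few regions over a wide neighbourhood of the gene, and its missing region cannot be told apart from that of its surroundings. The neighbouring gene txl-1 is divergent, with its 5′ end 1327 bp away.

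The lists differed widely between the genes of the helicase subunits, whose products act as a single ring. mcm-4 had an IDR peak, mcm-5 and mcm-3 had weaker regions in all 3 lists, mcm-6 and mcm-7 had a region in replicate 2 alone, and mcm-2 had none. However, mcm-2 and mcm-7 lay in long stretches with no pooled region, and mcm-4 lay in one of replicate 2. There a missing region and a missing signal cannot be told apart, so the contrast is one of the lists.

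mcm-4 (WBGene00003156, chromosome I, 2318291 to 2321817, minus strand) had its pooled summit at 2321964, at -147 bp, between genes. Its replicate 1 summit was at -160 bp, with a score of 60.3 (rank 1400). Replicate 2's list had no region there, and the gene's 5′ end lay between replicate 2 summits 163 kb apart, the 12th longest such distance of 29977, with the nearest at 24.2 kb. The peak thus entered the IDR set without a region in replicate 2. That was so for 21 of the 1894 nuclear IDR peaks, 1.11%, and a further 11 lacked a replicate 1 region. When the IDR set was replaced by the 1894 strongest regions of replicate 2 alone, mcm-4 dropped out and the count of genes fell to 3. Upstream, Y39G10AR.32 is on the same strand and ends 208 bp before mcm-4.

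mcm-5 (WBGene00003157, chromosome III, 4288264 to 4291266, minus strand) had a pooled score of 70.4 (rank 2780) at -379 bp. Replicate 1 gave 30.1 (rank 4001, -337 bp) and replicate 2 gave 29.8 (rank 5343, -287 bp). The replicate summits were 50 bp apart, at the upper quartile of IDR peaks, with a mean of -312 ± 35.4 bp (SD, n = 2). All 3 summits fell in the 3′ untranslated region of nth-1, a DNA repair glycosylase gene on the same strand that ends 277 bp upstream of mcm-5. The pooled −log10 q-value was 0.96, whereas the 4 genes with IDR peaks all had 2.01. That value was the same at scores from 163 to 503, so it does not rank those genes.

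mcm-3 (WBGene00003155, chromosome V, 15056719 to 15059599, minus strand) had a pooled score of 28.1, at rank 26313 near the weak end of the list. Replicate 1 gave 27.7 (rank 4889) and replicate 2 gave 45.9 (rank 2294). The summits did not coincide: they were at -391 bp in replicate 1, -114 bp in the pooled list and -24 bp in replicate 2, so that the replicates were 367 bp apart. The replicate 1 summit lay in the 5′ untranslated region of C25D7.15, a divergent gene 209 bp away, and the pooled summit was -95 bp from the 5′ end of that gene. Another pooled region with a higher score, 38.0, lay outside the window at -603 bp. The regions at mcm-3 therefore did not mark a position shared by the lists.

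mcm-7 (WBGene00003159, chromosome V, 4347166 to 4349768, plus strand) had a region in replicate 2 at -367 bp with a score of 29.0 (rank 5724). In the pooled list its 5′ end lay between summits 57.2 kb apart. The distance was 11.6 kb in replicate 1 and 4.03 kb in replicate 2. mcm-6 (WBGene00003158, chromosome III, 9794367 to 9798644, plus strand) had a region in replicate 2 at -292 bp with a score of 21.3 (rank 12746). Its nearest pooled summits were outside the window, at -1220 bp in an intron of R10E11.9 (score 35.6) and at +2156 bp (score 38.7), where mcm-6 overlaps the nested gene srxa-10. Unlike mcm-7, mcm-6 was in a stretch where regions were listed close together, with 56 pooled regions within 50 kb. mcm-2 (WBGene00003154, chromosome II, 12001509 to 12006625, minus strand) had no summit within 2500 bp in any list. The flanking summits were 36.3 kb apart in the pooled list, 35.8 kb in replicate 1 and 38.6 kb in replicate 2, with the nearest pooled summit at 8.86 kb.

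**Figure D2:**
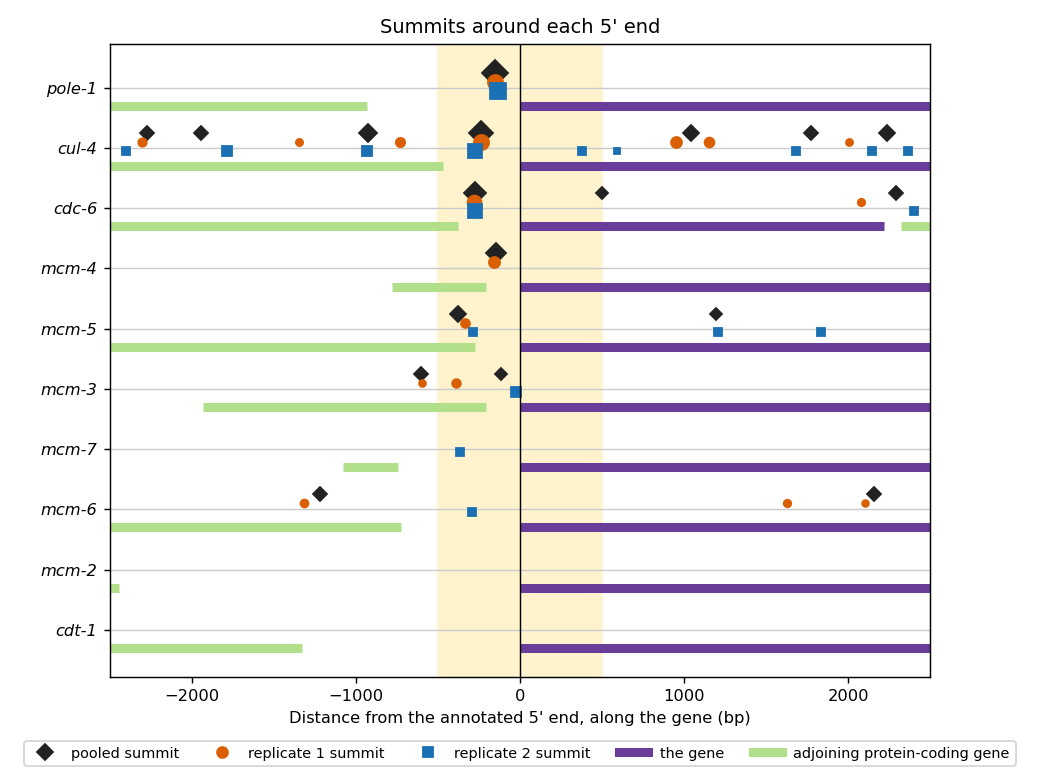
Summits within 2500 bp of each annotated 5′ end, by distance along the gene in bp, in the pooled list (diamonds), replicate 1 (circles) and replicate 2 (squares), with symbol size growing with the log of the score. The shaded band is the 500 bp window, dark bars are the gene and pale bars the adjoining genes. The summits at pole-1, cul-4 and cdc-6 stack upstream of the 5′ end in all 3 lists, those at mcm-3 are spread out, and mcm-2 and cdt-1 have none.

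cul-4, the scaffold of the ubiquitin ligase that limits CDT-1, was flanked by many weaker regions besides its strong peak. cul-4 (WBGene00000839, chromosome II, 7302101 to 7305758, plus strand) had its summit at 7301864, at -237 bp, in a region of 103 bp from 7301781 to 7301883. The summit lay between genes, in the 468 bp that separate cul-4 from C30G12.1 on the same strand. Replicate 1 gave a score of 219 (rank 237) and replicate 2 one of 202 (rank 319), with summits at -240 and -275 bp, a mean of -257.5 ± 24.7 bp (SD, n = 2). The pooled list had 7 regions within 2500 bp of the 5′ end: the peak itself, 3 in C30G12.1 and 3 in coding sequence of cul-4. Replicate 1 had 7 and replicate 2 had 9. The median over protein-coding genes was 1 pooled region and the 95th percentile was 4, and 79 genes, 0.396%, had 7 or more. The pooled scores of the flanking regions ran from 41.9 to 83.7, all below the IDR set. Within 50 kb there were 95 pooled regions, against a 95th percentile of 56 over genes, so the dense listing extended well beyond cul-4.

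pole-1, the gene of the catalytic subunit of DNA polymerase epsilon, had the highest pooled score of the group. pole-1 (WBGene00009368, chromosome I, 15005603 to 15013904, minus strand) had its summit at 15014057, at -153 bp, in a region of 178 bp between genes. Its pooled rank was 192. Replicate 1 gave a score of 214 (rank 252) and replicate 2 one of 277 (rank 191). The replicate summits were 14 bp apart, with a mean of -143 ± 9.90 bp (SD, n = 2). No other gene's 5′ end lay within 500 bp of the summit, and the next gene upstream, F33H2.6 on the same strand, ends 933 bp away. No list had another region within 2500 bp of the 5′ end. On the side of the gene body, the next pooled summit was 14.1 kb from the peak's own. Within 50 kb there were 28 pooled regions, beside a median of 34 over protein-coding genes, so the peak was isolated only at close range.

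Of the 5 genes with a region in both replicates, 4 had a score ratio between the quartiles of the IDR peaks. The ratio of replicate 1 to replicate 2 was 0.847 at cdc-6, 1.08 at cul-4, 0.774 at pole-1 and 1.01 at mcm-5, where the quartiles were 0.671 and 1.09 and the median 0.862. The ratio was 0.604 at mcm-3, below the lower quartile. The quartiles are over replicate regions that overlap the same IDR peak. At mcm-3 the replicate regions did not overlap each other, so its ratio sets different positions side by side. The GC content of the summit windows was 30.3% at cdc-6 and mcm-5, 38.3% at cul-4, 39.8% at mcm-3, 41.8% at pole-1 and 46.3% at mcm-4, and the quartiles of the IDR windows were 37.3% and 46.8%. Read depth is unknown, because the lists give no read counts.

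Of the 4 genes without a pooled summit, 3 were in long stretches where the pooled list held no region at all. A threshold of 20 kb between successive summits, chosen after the values were seen, gave 568 such stretches in the pooled list, covering 27.3 Mb, with the longest at 315 kb. They held the 5′ ends of 4275 protein-coding genes with no summit within 500 bp, 21.4% of all and 33.1% of those without a pooled summit. Among them were cdt-1, mcm-2 and mcm-7, and mcm-6 was not. Replicate 1's stretches held cdt-1 and mcm-2, 2 of the 4 genes without a summit in that list, and replicate 2's held cdt-1, mcm-2 and mcm-4. Strong regions of a single replicate were missing from the pooled list inside these stretches. Of the 1894 strongest nuclear regions of replicate 1, 137 (7.23%) overlapped no pooled region, and 119 of these fell in a pooled stretch of 20 kb or more. For replicate 2 the numbers were 52 and 43. For a gene in such a stretch, a missing region and a missing signal cannot be told apart, and the cause of the stretches was not tested.

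**Figure D3:**
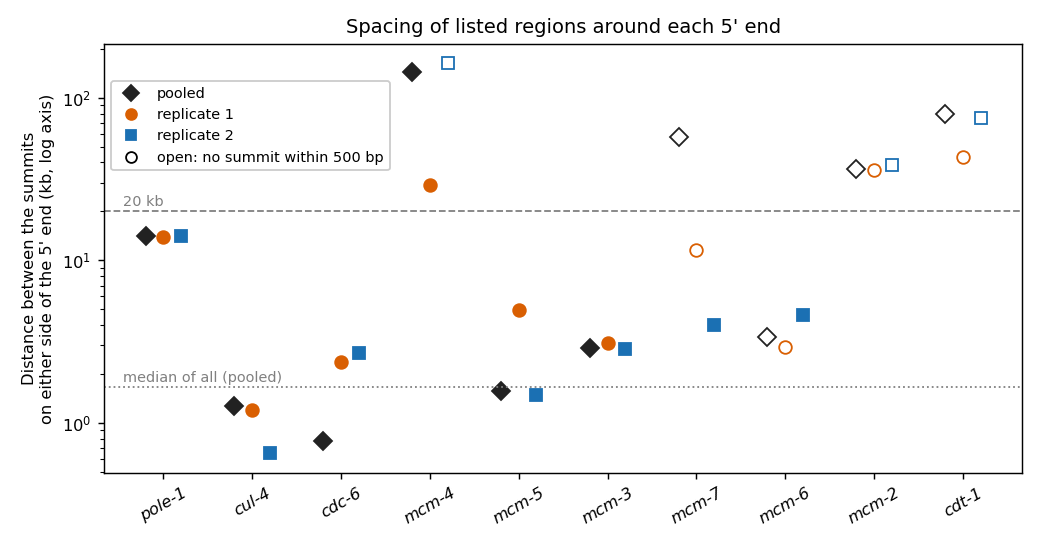
Distance in kb (log axis) between the summits on either side of each gene's 5′ end in the pooled list (diamonds), replicate 1 (circles) and replicate 2 (squares); open symbols have no summit within 500 bp. The dotted line is the median spacing of the pooled list and the dashed line is 20 kb. cdt-1 and mcm-2 are above 20 kb in all 3 lists, mcm-7 in the pooled list only, and mcm-4 is above it in all 3 although it has a pooled and a replicate 1 summit.

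The other genes of replication were described from lists by role. Of 66 distinct genes, 8 (12.1%) had an IDR summit within 500 bp, again beside 6.09% of protein-coding genes. A pooled summit was found at 23, which is 34.8%, near the 35.3% of all protein-coding genes. The origin recognition complex, which marks the origin, had 1 of 5: orc-5, with a score of 168 at -87 bp. orc-1, orc-3 and orc-4 lay in stretches over 20 kb without a summit in every list, and orc-2 had none within 500 bp. The licensing regulators, which include geminin (gmn-1), the CUL-4 partners ddb-1 and cdt-2, and the cyclins cyd-1 and cye-1, had 0 of 11 in the IDR set and 4 of 11 in the pooled list, again beside 35.3% of all. The strongest of those was ned-8, the ubiquitin-like modifier of cullins, with a score of 61.7. Its summit was at +465 bp, near the 3′ end of that short gene. Genes for replisome unloading had 0 of 7, and the cullins other than cul-4 had 0 of 5. cul-2 had the highest pooled score in both of these lists, 54.2 at -31 bp.

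Helicase activation and firing had 5 of 16 genes with an IDR summit, beside 6.09% of protein-coding genes. In the pooled list the list had 8 of 16, beside 35.3%. psf-1, a subunit of the GINS complex that joins the helicase at firing, had a score of 429 at -147 bp, with 212 in replicate 1 and 223 in replicate 2. psf-2, another GINS subunit, had 176 at -216 bp. dnsn-1, the DONSON homolog that helps assemble the active helicase, had 344 at -129 bp. clsp-1, a claspin gene of the replication checkpoint, had 247 at -230 bp. ctf-4, whose product links the helicase to the primase polymerase, had 338 at -125 bp. Like mcm-4, dnsn-1 had a replicate 1 region (193) and none in replicate 2, where its 5′ end lay between summits 52.6 kb apart. Polymerases and fork proteins had 2 of 23 in the IDR set and 9 of 23 in the pooled list, beside the same 6.09% and 35.3%. rfc-4, a subunit of the clamp loader, had 598 at -174 bp, higher than any of the 10 genes above. top-2, which encodes DNA topoisomerase II, had 406 at -289 bp.

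Most of these summits stood within 500 bp of a further 5′ end. The summit of clsp-1 was shared with eef-2, that of ctf-4 with eef-1G and that of rfc-4 with eef-1A.1, all genes of translation elongation factors. The summit of psf-1 was shared with R53.4 and 2 other genes, that of psf-2 with zipt-1, that of dnsn-1 with C24H12.4 and that of top-2 with npp-3. orc-5 was the only one of the 8 with no other 5′ end within 500 bp. With each summit given to its nearest gene only, the count fell from 8 to 5, beside 4.74% of protein-coding genes. The genes lost were clsp-1, ctf-4 and top-2.

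A further 9 replication genes, singled out after their values were seen, were among the 1894 strongest regions of a replicate without being in the IDR set. With those regions of either replicate added to the IDR set, 7.73% of protein-coding genes had a summit, against 6.09% without them. The highest were tim-1, a fork protection gene, with a score of 222 in replicate 1 (rank 228), pola-1, the catalytic subunit of polymerase alpha, with 201 (rank 279), and mcm-10, a helicase activation factor, with 176 (rank 341). These 3 had no region in replicate 2 or the pooled list. rfc-2, a clamp loader subunit, had scores of 197 (replicate 1, rank 287) and 133 (replicate 2, rank 575), with summits at -131 and -142 bp, and no pooled region. Its 5′ end lay between pooled summits 155 kb apart. pcn-1, the sliding clamp, had 117 in replicate 1 alone, pri-2 of the primase had 103 and tipn-1 had 77.3. Of the 9 genes, 7 had no pooled region, and all 7 lay in pooled stretches of 20 kb or more. So did 86.9% of all the strong replicate 1 regions that were absent from the pooled list. The remaining genes, rfc-1 and dna-2, had pooled scores of 79.5 (rank 2258) and 88.8 (rank 1931), below the lowest IDR score of 89.9.

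**Figure D4:**
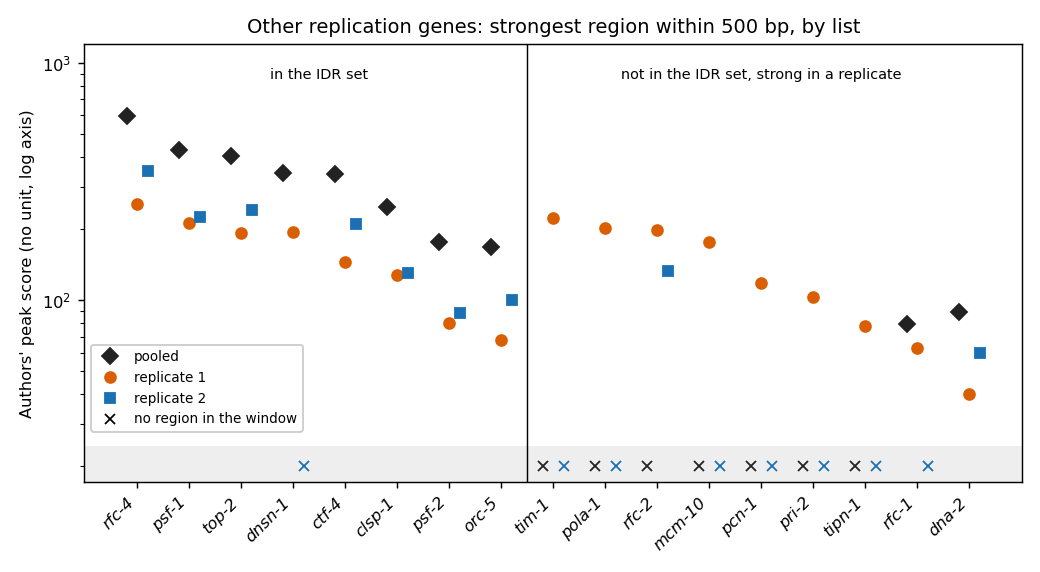
Authors' peak score (no unit, log axis) of the strongest region within 500 bp for the 8 further replication genes in the IDR set (left) and the 9 strong in a replicate but not in the set (right), in the pooled list (diamonds), replicate 1 (circles) and replicate 2 (squares). Crosses are lists with no region in the window. On the right, rfc-2 is the gene with high values in both replicates and no pooled region.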

How the data were processed

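Peak lists of 2 biological replicates were used. The authors listed regions, background included, per replicate and for pooled data, and made the IDR set from those lists, per the labels' file records. The score in column 7 and the −log10 q-value in column 9 are deposited values of the authors, with no unit given for the score. Not given in the sources used here: the aligner, the peak caller and the threshold on the IDR. Read depth is unknown. The ce11 lists were read with the Ensembl annotation (release 115), and 4 lists on ce10 were not used. The number of unmatched columns was 0.

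A gene was counted when a nuclear summit lay within 500 bp of its 5′ end, and the window search was tested on simulated data. No test between groups was possible with 1 group. Members and lists were chosen with earlier results of these data known. All 10 members were named, with the genes that adjoin them or share their summits. Of the replication lists, genes with an IDR summit and the strongest pooled summit per list were named; others were named after their values were seen. For 6 replication symbols no gene was matched, and 3 genes were matched by their RefSeq symbol. The count was repeated with windows of 250 or 1000 bp, any base of a region, any transcript's 5′ end, nearest gene only, the 947 strongest IDR peaks, and each replicate left out, using the remaining replicate's 1894 strongest regions. Python 3.11.15 with pandas 2.3.3 and numpy 2.4.6 was used.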

Additional observations from a re-analysis of the deposited data

How the results depend on the processing

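The count of licensing genes with an IDR summit was 4 and stayed between 3 and 4 under every alternative run. It was 3 with a 250 bp window (about 4% of protein-coding genes) and with nearest gene only (4.74%), both without cdc-6. It was also 3 without replicate 1 (6.03%), which left out mcm-4. The count with a pooled summit, 6, stood beside 35.3% of protein-coding genes. It was 4 with a 250 bp window, beside about 22%, and 7 at most. With a 1000 bp window it was again 6, while the share of protein-coding genes rose to 51%. With any transcript's 5′ end it was 7, beside 38%. The shares moved with the window, so a steady count is not a steady contrast with all genes. The count of other replication genes, 8, moved more. It was 5 with nearest gene only, beside 4.74% of protein-coding genes. It ranged from 9 to 16 when a replicate was left out, with 9 without replicate 1 (6.03% of protein-coding genes) and 16 without replicate 2 (6.33%). It was 17 when the 1894 strongest regions of either replicate were added to the IDR set, an alternative chosen after seeing the data, under which 7.73% of protein-coding genes had a summit and the licensing genes kept 4. No paired analysis was possible because all samples belong to 1 group. Without read counts, a missing region sets no limit on binding.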
